A study of Mus musculus with 9 samples.

Results

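The genes described here are 32 homeostatic microglia identity genes, chosen by name from the 24421 genes of the count table. They comprise 6 receptors, 3 genes of the TGF-beta axis, 6 transcription factors, 8 other surface and membrane proteins, 3 secreted proteins and 6 intracellular proteins. All 32 were found, and all 32 passed the filter on low counts in both fits described below. Microglia are the resident macrophages of the brain, and in the healthy brain they carry a set of transcripts that sets them apart from other macrophages. Signals through CSF1R keep the cells alive, TGF-beta acting through its receptors and SMAD proteins keeps up the homeostatic set, and the factors PU.1, SALL1 and MEF2C occupy many of its genes. In several mouse models of neurodegeneration microglia lower part of this set, P2ry12, Tmem119 and Cx3cr1 among it, while genes such as Apoe and Clec7a rise.

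RNA of sorted live CX3CR1+, CD45+ and CD11b+ brain cells on a C57BL6 background (the labels spell the strain C57CL6J) was sequenced in 9 libraries, 3 in each of 3 groups. WT libraries came from controls that the series calls littermates. FD libraries came from Gla y/- mice, a model of Fabry disease that lacks alpha-galactosidase A and is kept as homozygotes. MLIV libraries came from Mcoln1-/- mice, a model of mucolipidosis type IV bred from heterozygotes that lacks the lysosomal channel TRPML1. The study describes littermate controls for MLIV and age-matched wild-type controls for FD. Breeding line and genotype cannot be told apart in FD against WT or in MLIV against FD. No group was treated, and both mutations are in the germline, so every cell of the animal carries them. The methods give an age of 2 months and 4 mice per condition, whereas the series title gives 4 months, and nothing says which animals made which library. The p-values therefore rest on how far libraries of a group lay apart, and how much of this is technical is not known. The MLIV libraries differed in the sex-linked transcripts given below, so they were not all made from the same animals.

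The libraries held 22772260 to 37801159 counts, and the lowest count of a member in a library was 2310, whose counting error is 2.08%. Levels are given as CPM, counts of a gene relative to the TMM-scaled total of its library. The library labelled WT replicate 3 had 2 counts of Mcoln1, against 1082 and 1517 in the other WT libraries, 892 to 1442 in FD and 0 to 18 in MLIV. Every test was therefore fitted with all 9 libraries as labelled and with 8 libraries, that one left out. Where a sentence names no number of libraries its value is from the 9-library fit. Gla was counted at 4.59 to 10.8 CPM in WT and 4.56 to 4.83 in FD, so it does not settle the FD label. FD replicate 3 stood apart, with the fewest genes detected (12032) and it held the lowest value of the 9 libraries for 11 of 32 members and the highest for 8, beside 38.1% and 25.3% of all genes tested. Xist was counted at 1358 to 1522 CPM in the FD libraries and at 0.52 to 4.12 in WT, which goes against the male genotype given for FD and means that sex and genotype cannot be told apart in FD against WT. In MLIV it was at 1449, 1027 and 4.00 CPM in replicates 1, 2 and 3, with the Y-linked Ddx3y at 0, 26.6 and 76.7.

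The labelled cell type was checked against markers of microglia. Siglech was counted at 1484 to 2291 CPM, Tmem119 at 941 to 1845 and Sall1 at 890.3 to 1414 across the 9 libraries. Together the 32 members took 4.25 to 5.58% of all counts. Their summed level was 44081, 53927 and 54511 CPM in WT replicates 1, 2 and 3, 47806, 51246 and 44232 in FD, and 58782, 53286 and 50269 in MLIV. The 3 groups overlapped in this sum. In sorted bulk RNA, fewer cells of a type and less RNA per cell cannot be told apart.

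Levels per kb of exonic length (CPM per kb) spanned a wide range among the members. Cst3, the secreted cysteine protease inhibitor cystatin C, had the highest mean, 14873 CPM per kb over the 9 libraries, and was also first among all genes of the table. Csf1r (1652 CPM per kb), Cx3cr1 (1164), Selplg (1003) and P2ry12 (965) followed. The lowest means were those of Bhlhe41 (36.8 CPM per kb), a basic helix-loop-helix repressor, and Smad3 (36.6). Only 2 steps in the order of means separated neighbours without overlap of their 9 libraries, Cst3 above Csf1r and Ikzf1 above Bhlhe41.

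**Figure D1:**
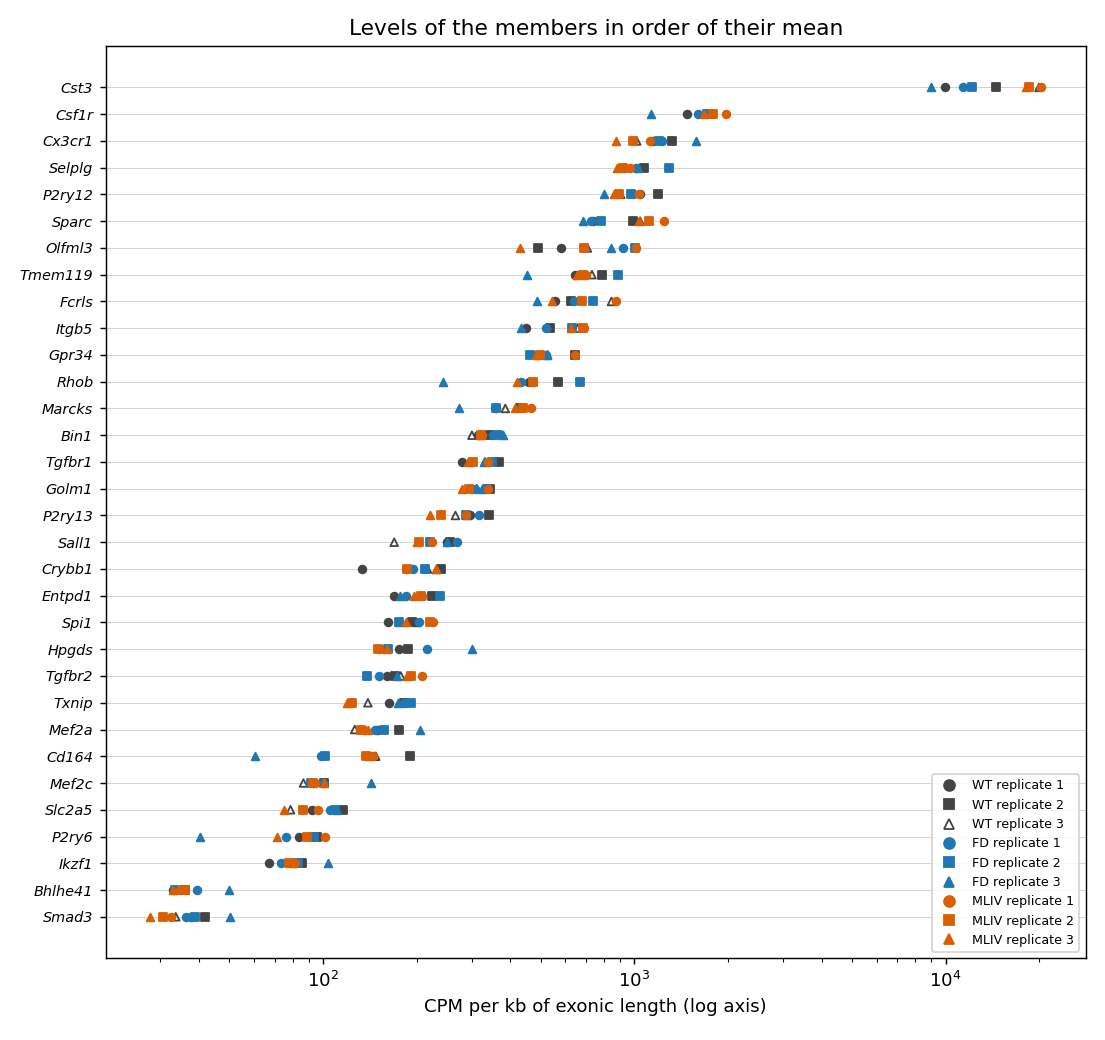
Level of each of the 32 members in CPM per kb of exonic length (log axis), ordered by the mean over 9 libraries, with 1 point per library. Cst3 lies above all others at 8967 to 20252 CPM per kb, and most neighbours in the order overlap.

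Called means here a Benjamini-Hochberg adjusted p below 0.05 over all genes tested by edgeR's quasi-likelihood test, with any fold. With all 9 libraries no member was called in any comparison. FD against WT called 0 of 32 members, beside 0.339% of all 15340 genes tested. MLIV against WT called 0 of 32 members, beside 0% of all genes. MLIV against FD called 0 of 32 members, beside 1.26% of all genes. At an unadjusted p below 0.05 there were 2, 1 and 9 members in these 3 comparisons, beside 8.01%, 4.64% and 19.4% of all genes tested. DESeq2 called 1, 0 and 8 members, among 173, 14 and 1519 of the 14398, 20456 and 11531 genes to which it gave an adjusted p. In MLIV against FD the count was 3 without WT replicate 1 (Cst3, Sparc and Txnip) and 1 without FD replicate 2 (Hpgds), while the genes called in all went from 194 to 473 and 283.

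Leaving out the library labelled WT replicate 3 gave 4 called members, all in MLIV against FD. That library is in neither group of this comparison and enters it through the shared spread, the filter and the scaling. The log2 fold change of Cst3 was 0.81 with 9 libraries and 0.80 with 8, and its standard error was 0.23 and 0.17. Cst3, Sparc and Cd164 were higher in MLIV than in FD and Txnip was lower. That is 4 of 32 members beside 5.63% of all 17440 genes tested, 3 higher beside 3.5% and 1 lower beside 2.13%. FD against WT called 0 of 32 beside 0.31%, and MLIV against WT called 0 of 32 beside 1.7%. At an unadjusted p below 0.05 these 8-library comparisons held 2 (FD against WT), 6 (MLIV against WT) and 11 (MLIV against FD) members, beside 4.20%, 10.1% and 17.6% of all genes tested. DESeq2 called 1, 3 and 10 members, among 128, 701 and 1808 of the 17776, 8848 and 12411 genes to which it gave an adjusted p. The count in MLIV against FD depended on single libraries: without MLIV replicate 1 or without MLIV replicate 2 it fell to 0 members, and without MLIV replicate 3 or without FD replicate 1 to 2. The genes called in all fell alongside, from 982 to 372, 369, 507 and 728 in the same order. In MLIV against WT it rose from 0 to 5 (Cst3, Txnip, Itgb5, Sparc and Smad3) without FD replicate 3 and to 1 (Cst3) without WT replicate 2, while the genes called in all went from 296 to 1515 and 250. In FD against WT it rose to 1 (Cd164) without FD replicate 3, with 54 genes called in all before and 122 after.

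The typical member moved less than the typical gene. In the 9-library fit the median of the absolute log2 fold change was 0.17 over the members and 0.32 over all genes tested in FD against WT, 0.14 and 0.24 in MLIV compared with WT, and 0.26 and 0.42 for MLIV against FD. These medians were not compared at matched levels, and nothing particular to the members follows from them. The signed medians were 0.00 for the members and -0.08 for all genes in FD against WT, -0.05 and -0.03 in MLIV against WT, and -0.08 and 0.03 in MLIV against FD. With 8 libraries the medians of the absolute value were 0.13 and 0.36, 0.23 and 0.40, and 0.27 and 0.49 in the same order, and the signed ones 0.04 and -0.12, -0.05 and -0.13, and -0.08 and -0.03.

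The intervals give a limit on the changes between the groups as labelled that were not called. With 9 libraries the WT group includes the library labelled WT replicate 3, which had 2 counts of Mcoln1. The 95% interval of the log2 fold change lay inside 1 log2 unit in either direction for 30 of 32 members in FD against WT with 9 libraries (all genes 46.8%), for 32 in MLIV compared with WT (all genes 50.4%) and for 30 in MLIV against FD (all genes 41.4%). With 8 libraries it was 28 of 32 members in FD against WT (all genes 40.1%), 30 in MLIV against WT (all genes 38%) and 30 in MLIV against FD (all genes 36.8%). The members whose interval reached further were Cd164 and Olfml3 in FD against WT, joined by Rhob and P2ry6 with 8 libraries, Cd164 and Cst3 in MLIV against FD with 9 or 8 libraries, and Cst3 and Olfml3 in MLIV against WT with 8 libraries.

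**Figure D2:**
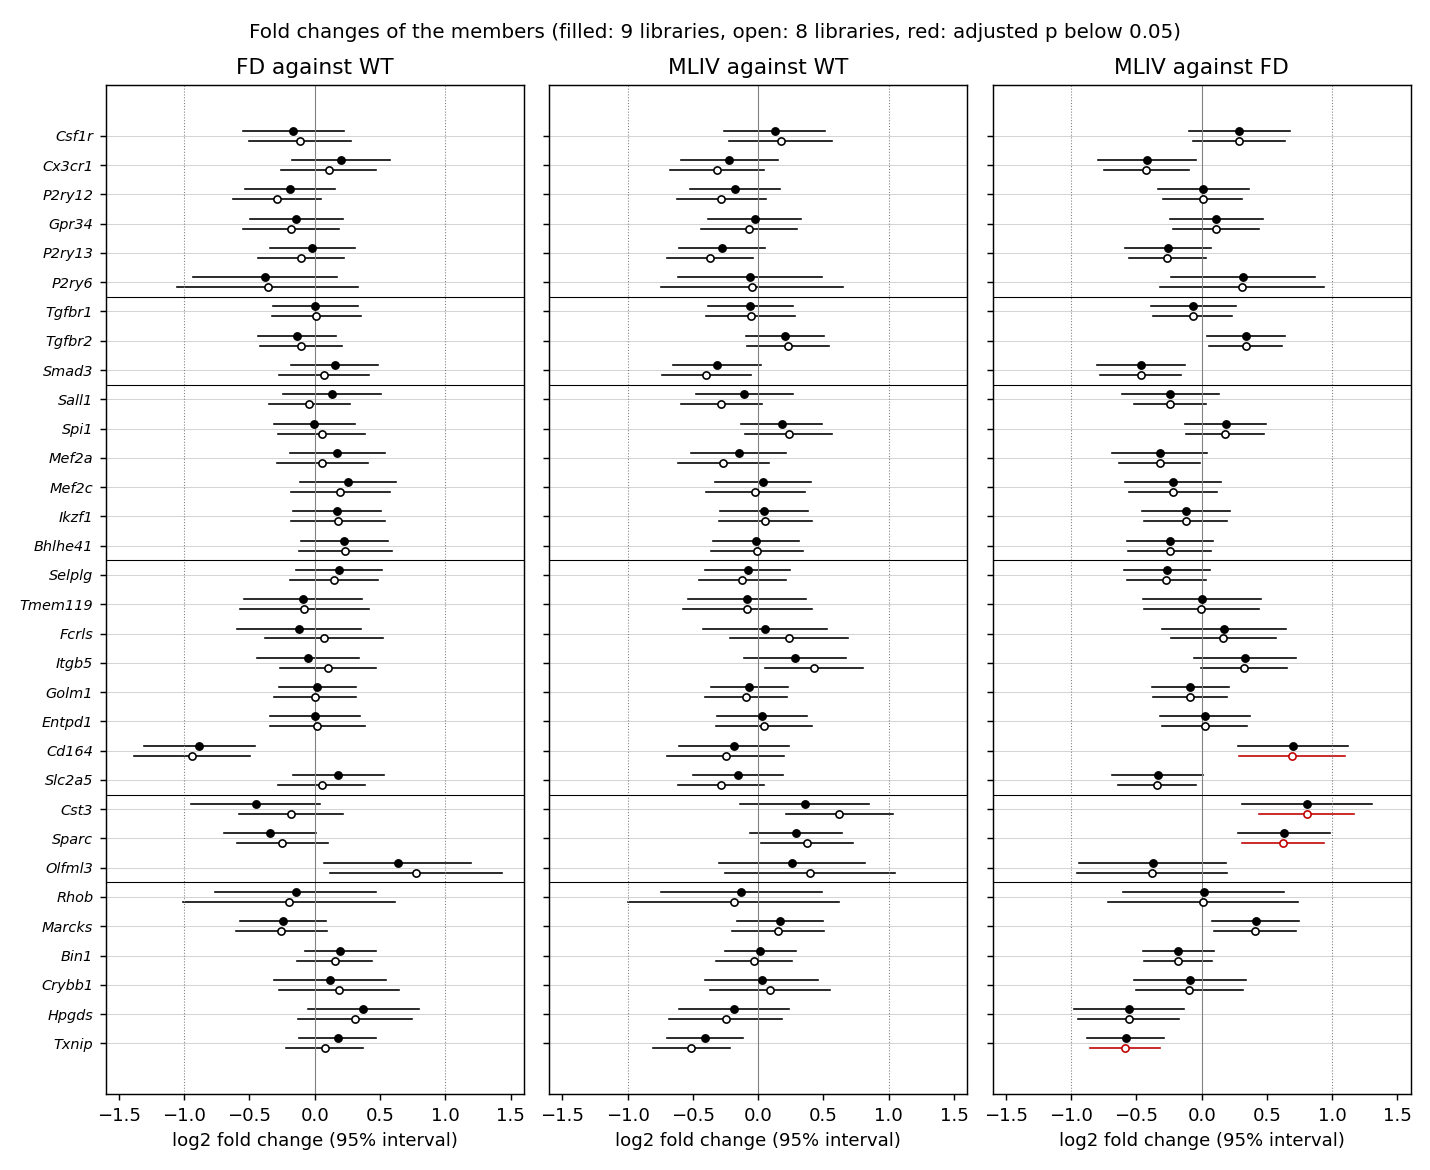
log2 fold change of each member with its 95% interval in the 3 comparisons, grouped by role. Filled points are the 9-library fit and open points the 8-library fit, and red marks an adjusted p below 0.05, reached by Cst3, Sparc, Cd164 and Txnip in MLIV against FD with 8 libraries.

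Among the receptors, P2ry12 encodes the ADP receptor that steers microglial processes toward injured cells and is a common marker of the homeostatic state. It was counted at 2448, 2794 and 2115 CPM in WT replicates 1, 2 and 3, at 2309.9, 2279 and 1864 in FD and at 2415, 2086 and 2005 in MLIV. The lowest value belonged to FD replicate 3 and the 3 groups overlapped. Its log2 fold change was -0.18 ± 0.16 (SE) in MLIV against WT with 9 libraries (95% interval -0.52 to 0.17, edgeR adjusted p = 0.999) and -0.28 ± 0.16 with 8 libraries (-0.62 to 0.06, adjusted p = 0.588). Between MLIV and FD it was 0.01 ± 0.16 (-0.34 to 0.36).

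Cx3cr1 encodes the receptor for the neuronal chemokine fractalkine, and its protein was part of the sorting gate, so the cells compared had already been selected for it. Its level was 4296, 4966 and 3820.5 CPM in WT, at 4606, 4502 and 5919 in FD and at 4209, 3728 and 3286 in MLIV. All MLIV libraries lay below all FD libraries. Compared with FD, MLIV had a log2 fold change of -0.42 ± 0.17 (adjusted p = 0.202) with 9 libraries and -0.42 ± 0.15 (adjusted p = 0.134) with 8, both short of a call by edgeR. DESeq2 gave an adjusted p of 0.0471 with 9 libraries and 0.0152 with 8. Against WT the log2 fold change of MLIV was -0.22 ± 0.17 (edgeR adjusted p = 0.999) with 9 libraries and -0.32 ± 0.17 (edgeR adjusted p = 0.567) with 8.

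Csf1r encodes the receptor for CSF1 and IL-34 on which microglial survival depends. It was counted at 5703, 6697 and 6902 CPM in WT, at 6197, 6641 and 4393 in FD and at 7649, 6925 and 6490.3 in MLIV. The FD spread came from FD replicate 3, and the groups overlapped. The log2 fold change was 0.13 ± 0.18 in MLIV against WT (adjusted p = 0.999) and -0.16 ± 0.18 in FD against WT (adjusted p = 0.834), and with 8 libraries 0.17 ± 0.19 (adjusted p = 0.861) and -0.11 ± 0.18 (adjusted p = 0.983). The other receptors were P2ry13, a second ADP receptor, P2ry6, which senses UDP, and Gpr34, which senses lysophosphatidylserine. Their log2 fold changes in the 9-library fit lay between -0.38 (P2ry6, FD against WT) and 0.32 (P2ry6, MLIV against FD), none called. P2ry13 was lower in all 3 MLIV libraries than in the WT replicates 1 and 2, with a log2 fold change of -0.37 ± 0.15 in the 8-library fit (edgeR adjusted p = 0.407, DESeq2 adjusted p = 0.0363).

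In the TGF-beta axis, Tgfbr1 and Tgfbr2 encode the kinase receptors and Smad3 the factor they phosphorylate. Tgfbr1 was counted at 1579, 2082 and 1879 CPM in WT, at 1709.6, 1976 and 1866 in FD and at 1927, 1724 and 1655 in MLIV, with groups that overlapped throughout. Its log2 fold change was within 0.07 of 0 in all 3 comparisons of the 9-library fit, with intervals from -0.39 to 0.33 at the widest, and from -0.40 to 0.35 with 8 libraries. Tgfbr2 was counted at 771, 814 and 851 CPM in WT, at 726, 663 and 829 in FD and at 998, 919.7 and 890.0 in MLIV. Every MLIV library lay above every WT and FD library, and the log2 fold change was 0.20 ± 0.14 against WT (adjusted p = 0.999) and 0.34 ± 0.14 against FD (adjusted p = 0.194). With 8 libraries it was 0.23 ± 0.15 (adjusted p = 0.642) and 0.34 ± 0.13 (adjusted p = 0.172). Against FD, DESeq2 gave Tgfbr2 an adjusted p of 0.05002 with 9 libraries and 0.0322 with 8.

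Smad3 went the other way. Its level was 192, 213 and 171 CPM in WT, at 185, 198 and 256 in FD and at 166, 156 and 142 in MLIV, so every MLIV library lay below every other library. The log2 fold change of MLIV was -0.31 ± 0.15 against WT (adjusted p = 0.999) and -0.47 ± 0.15 against FD (adjusted p = 0.124) with 9 libraries. With 8 libraries it was -0.40 ± 0.16 against WT (adjusted p = 0.381) and -0.47 ± 0.14 against FD (adjusted p = 0.0802). DESeq2 called it against FD, with an adjusted p of 0.0324 with 9 libraries and 0.0144 with 8.

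Among the transcription factors, Sall1 encodes the zinc finger factor found in microglia and few other macrophages. It was counted at 1319.5, 1343 and 890.3 CPM in WT, at 1414, 1159.9 and 1320.0 in FD and at 1175, 1069 and 1056 in MLIV. The lowest of the 9 values was that of the library labelled WT replicate 3, below every MLIV library. The log2 fold change of MLIV against WT was -0.11 ± 0.17 with that library (adjusted p = 0.999) and -0.28 ± 0.14 without it (adjusted p = 0.556). Spi1, which encodes the lineage factor PU.1, was counted at 215, 258 and 267 CPM in WT, at 271, 234 and 233 in FD and at 300.1, 294 and 246 in MLIV. It overlapped between all groups, with log2 fold changes of -0.00 ± 0.14 in FD against WT and 0.18 ± 0.14 in MLIV against WT, and 0.05 ± 0.16 and 0.23 ± 0.16 with 8 libraries. Mef2a, Mef2c, Ikzf1 (the lymphoid and myeloid factor Ikaros) and Bhlhe41 all had their highest value in FD replicate 3. Their log2 fold changes ran from -0.32 (Mef2a, MLIV against FD) to 0.26 (Mef2c, FD against WT) in the 9-library fit, none called.

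Among the other surface and membrane proteins, Tmem119, a transmembrane protein used to tell microglia from other brain macrophages, was counted at 1336, 1633 and 1519.6 CPM in WT. It was at 1434, 1845 and 941 CPM in FD and at 1451, 1419 and 1359.9 in MLIV. The MLIV libraries lay within the WT range, while FD held both the highest and the lowest value. The log2 fold change was -0.09 ± 0.21 in MLIV against WT (95% interval -0.54 to 0.36) and 0.00 ± 0.21 in MLIV against FD (-0.45 to 0.45). With 8 libraries it was -0.08 ± 0.23 (-0.57 to 0.41) and -0.00 ± 0.20 (-0.44 to 0.44).

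Cd164 encodes endolyn, a sialomucin that cycles between the cell surface and late endosomes and lysosomes. It lies at chromosome 10, 41519500 to 41531042, plus strand, in mm10. Its level was 401, 540.4 and 418 CPM in WT, at 278, 287 and 172 in FD and at 409.7, 389.9 and 397 in MLIV. All 3 FD libraries lay below all 6 others, and WT and MLIV overlapped. MLIV against FD gave a log2 fold change of 0.69 ± 0.19 with 8 libraries (edgeR adjusted p = 0.0478) and 0.70 ± 0.19 with 9 (adjusted p = 0.0787). In FD against WT it was the member with the largest change, -0.88 ± 0.19 with 9 libraries (unadjusted p = 0.000629, edgeR adjusted p = 0.111) and -0.94 ± 0.21 with 8 (adjusted p = 0.117), which edgeR did not call. DESeq2 called it in FD against WT, with adjusted p of 0.00115 and 0.0015. The lowest of the FD values was that of FD replicate 3. Without that library the fold change of FD against WT was called in the 8-library fit. In MLIV against WT the value was -0.18 ± 0.19 (adjusted p = 0.999).

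The remaining membrane proteins were not called by edgeR. They are Selplg, a ligand of selectins, Fcrls, a receptor-like Fc family protein, Itgb5, an integrin subunit, Golm1, a Golgi membrane protein, Entpd1, which encodes the ectonucleotidase CD39, and Slc2a5, the fructose transporter GLUT5. DESeq2 called Slc2a5 in MLIV against FD with 8 libraries (adjusted p = 0.0435) and not with 9 (adjusted p = 0.133). Itgb5 was at 1468 and 1761 CPM in WT replicates 1 and 2 and at 2262, 2238 and 2052 in MLIV, a log2 fold change of 0.43 ± 0.17 with 8 libraries (adjusted p = 0.388). The library labelled WT replicate 3 was at 2159.7 CPM, inside the MLIV range.

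Of the 3 secreted members, Cst3 (chromosome 2, 148871732 to 148875468, minus strand) was counted at 7399.7, 10793 and 14808 CPM in WT, at 8433, 9018 and 6654 in FD and at 15027, 13744 and 13448 in MLIV. Every MLIV library lay above every FD library, and the library labelled WT replicate 3 lay inside the MLIV range. Compared with FD, MLIV had a log2 fold change of 0.80 ± 0.17 with 8 libraries (adjusted p = 0.0118) and 0.81 ± 0.23 with 9 (adjusted p = 0.0824). Against WT it was 0.62 ± 0.19 with 8 libraries (adjusted p = 0.158, DESeq2 adjusted p = 0.0114) and 0.36 ± 0.23 with 9 (adjusted p = 0.999). The standard deviation among the WT libraries was 33.7% of the mean, the largest of the WT values among the members.

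Sparc encodes a secreted glycoprotein that binds collagen and lies at chromosome 11, 55394159 to 55420080, minus strand. It was counted at 1953, 2618 and 2757 CPM in WT, at 1921, 2057 and 1809.7 in FD and at 3282, 2941 and 2729 in MLIV. MLIV and FD did not overlap, while WT spanned from the FD level to that of MLIV replicate 3. MLIV against FD gave a log2 fold change of 0.62 ± 0.15 with 8 libraries (adjusted p = 0.0219) and 0.63 ± 0.16 with 9 (adjusted p = 0.0682). Against WT it was 0.38 ± 0.17 with 8 libraries (adjusted p = 0.443).

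Olfml3, which encodes a secreted olfactomedin-like protein, was described after its values were seen. Its level was 1012, 851 and 1228 CPM in WT, at 1596, 1747 and 1459 in FD and at 1759, 1196 and 744 in MLIV. All FD libraries lay above all WT libraries, while the MLIV libraries spread over the whole range, with a standard deviation of 41.2% of their mean. The log2 fold change of FD against WT was 0.64 ± 0.26 (adjusted p = 0.597) with 9 libraries and 0.78 ± 0.29 (adjusted p = 0.983) with 8. Xist was at 1449, 1027 and 4.00 CPM in MLIV replicates 1, 2 and 3, at 1358 to 1522 in FD and at 0.52 to 4.12 in WT. The part of sex in the levels of Olfml3 was not tested.

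Among the intracellular proteins, Txnip encodes an alpha-arrestin that binds thioredoxin and limits glucose uptake, and its transcription rises with glucose through carbohydrate response elements in its promoter. It lies at chromosome 3, 96557957 to 96561857, plus strand. It was counted at 455, 512 and 391 CPM in WT, at 509, 537 and 487 in FD and at 341, 348 and 334 in MLIV. Every MLIV library lay below every other library, the library labelled WT replicate 3 included. Compared with FD, MLIV had a log2 fold change of -0.59 ± 0.12 with 8 libraries (adjusted p = 0.0122) and -0.58 ± 0.14 with 9 (adjusted p = 0.0547). Against WT it was -0.51 ± 0.14 with 8 libraries (adjusted p = 0.0892, DESeq2 adjusted p = 1.77e-05) and -0.41 ± 0.14 with 9 (adjusted p = 0.999). Txnip was the only member to share exonic bases with another gene, 21.6% of them with the antisense transcript Gm15441. That gene had 0 to 16 counts in a library, and the counts do not use strand.

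The other intracellular members were Rhob, a small GTPase, Marcks, a substrate of protein kinase C that binds actin, Bin1, which bends membranes, Crybb1, a crystallin, and Hpgds, the hematopoietic prostaglandin D synthase. None was called by edgeR. In MLIV against FD, DESeq2 called Marcks (adjusted p = 0.0401 with 9 libraries and 0.0241 with 8) and Hpgds (0.0341 and 0.0195). Marcks was at 1949.9, 1833 and 1737 CPM in MLIV, above all 3 FD libraries, and Hpgds was at 498, 497 and 529, below all 3. In both, FD replicate 3 was the farthest from MLIV, at 1147 and 997 CPM. Rhob had the widest spread in FD, from 540.1 CPM in FD replicate 3 to 1496 in FD replicate 2.

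**Figure D3:**
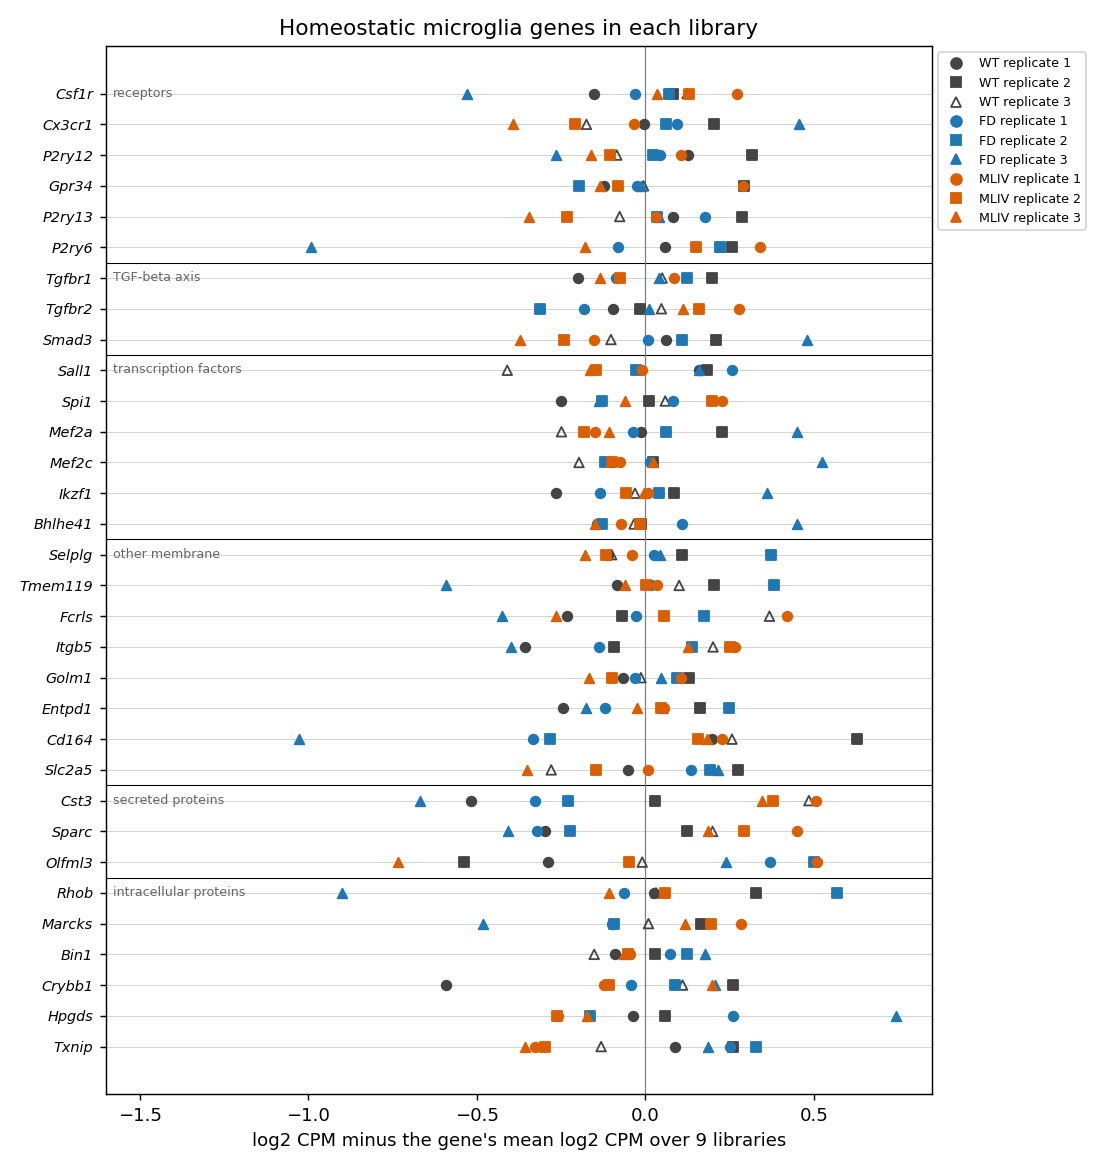
log2 CPM of each member in each library minus the member's mean over 9 libraries, grouped by role. FD replicate 3 (blue triangle) is the lowest of the 9 libraries for 11 members and the highest for 8 (38.1% and 25.3% of all genes). The MLIV libraries lie above all FD libraries for 5 members (Cst3, Sparc, Cd164, Marcks and Tgfbr2), beside 16% of all genes. They lie below all FD libraries for 9 members (Bin1, P2ry13, Txnip, Slc2a5, Selplg, Hpgds, Mef2a, Smad3 and Cx3cr1), beside 11.8%.

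The 4 members called by edgeR are set out with every library because single members moved within a list of which it did not call 28. In FD against WT with 9 libraries 3 of 32 members did not overlap between groups (Bin1 and Olfml3 higher, Cd164 lower), beside 12.6% of all genes tested. With 8 libraries it was 4 of 32, P2ry12 lower being added, beside 18.1%. In MLIV against WT with 9 libraries it was 4 of 32 members, Tgfbr2 higher and Txnip, Hpgds and Smad3 lower, also beside 12.6%. In MLIV against FD it was 14 of 32 beside 27.8%, of which 5 were higher beside 16% and 9 lower beside 11.8%. With 8 libraries, MLIV against WT had 4 members higher beside 17.3% of all genes and 8 lower beside 15.7%. The 8 lower members were P2ry13, P2ry12, Txnip, Hpgds, Mef2a, Sall1, Smad3 and Cx3cr1, of which edgeR called none.

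**Figure D4:**
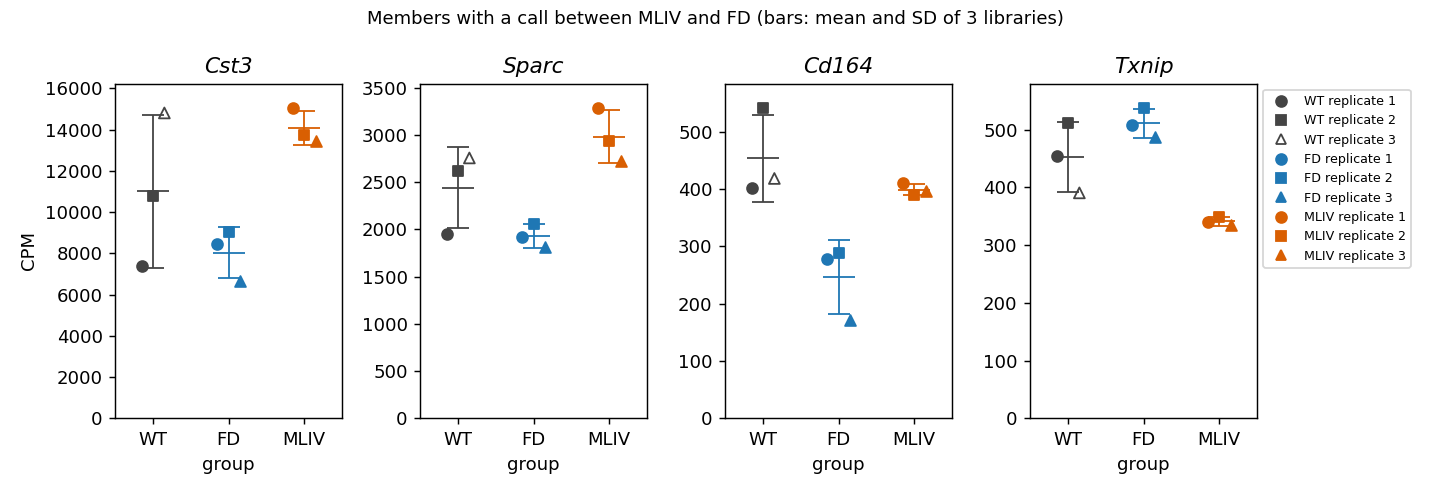
CPM of Cst3, Sparc, Cd164 and Txnip in each library, with the mean and SD of the 3 libraries of each group (the open triangle is the library labelled WT replicate 3). In Txnip all MLIV libraries (334 to 348 CPM) lie below all others, and in Cd164 all FD libraries (172 to 287 CPM) lie below all others.

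Xist was high in all 3 FD libraries and in MLIV replicates 1 and 2, but not in MLIV replicate 3 or in WT. The part of sex in the values of these 4 members was not tested.

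The sequences before the start of these 4 genes are shown because they are the members edgeR called in MLIV against FD with 8 libraries, and for Txnip because carbohydrate response elements are known in its promoter. RefSeq promoters (build GRCm38.p6) were found for 24 of the 32 members. Each sequence below is the 250 bases before the RefSeq start, 5′ to 3′ on the strand of the gene. Capitals mark every match, on either strand, to CACGTG (the E-box), CACGAG (part of the carbohydrate response element), GAGGAA (a core of PU.1 sites), CCAAT (the CCAAT box), GGGCGG (the GC box), TATAAA (the TATA box), GTCTAGAC (a SMAD palindrome) and TAAAAATA (a MEF2 core). Where matches adjoin or overlap, as 2 GC boxes do in Cd164, the capitals run together.
Cst3, chr2:148875513-148875762, minus strand: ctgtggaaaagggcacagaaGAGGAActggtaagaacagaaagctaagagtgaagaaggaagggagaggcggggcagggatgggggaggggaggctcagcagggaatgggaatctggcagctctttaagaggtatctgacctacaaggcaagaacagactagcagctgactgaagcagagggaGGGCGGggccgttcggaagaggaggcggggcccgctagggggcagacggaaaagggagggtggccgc
Txnip, chr3:96557707-96557956, plus strand: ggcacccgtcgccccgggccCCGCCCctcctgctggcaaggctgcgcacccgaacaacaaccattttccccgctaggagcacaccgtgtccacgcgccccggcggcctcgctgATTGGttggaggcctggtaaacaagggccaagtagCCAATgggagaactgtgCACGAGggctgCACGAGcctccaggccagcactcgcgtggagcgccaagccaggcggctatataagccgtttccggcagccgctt
Sparc, chr11:55420081-55420330, minus strand: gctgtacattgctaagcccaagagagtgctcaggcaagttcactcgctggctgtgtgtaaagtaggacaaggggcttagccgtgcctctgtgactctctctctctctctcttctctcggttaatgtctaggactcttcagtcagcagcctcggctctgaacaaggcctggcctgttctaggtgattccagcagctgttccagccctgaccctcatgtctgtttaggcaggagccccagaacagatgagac
Cd164, chr10:41519250-41519499, plus strand: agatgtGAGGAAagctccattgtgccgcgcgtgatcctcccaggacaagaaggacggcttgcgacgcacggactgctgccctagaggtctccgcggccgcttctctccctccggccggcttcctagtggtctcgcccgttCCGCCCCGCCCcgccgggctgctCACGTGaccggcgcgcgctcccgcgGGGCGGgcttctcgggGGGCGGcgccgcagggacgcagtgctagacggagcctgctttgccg

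The Txnip window held CACGAG at 85 and 74 bases before the start, both on the strand of the gene, and matches to the CCAAT box at 137 and 102 bases. CACGAG occurred at least once in 5.37% and at least 2 times in 0.262% of all 32851 promoter windows of this length. The Cd164 window held CACGTG at 87 bases before the start, a motif in 6.02% of all windows, and 4 matches to the GC box, a motif in 32.7% of all windows. The Cst3 window held GAGGAA, a motif in 23.3% of all windows, at 230 bases and a GC box at 67 bases. None of the 8 motifs occurred in the Sparc window. CCAAT occurred in 33.8% and TATAAA in 12.4% of all windows, GTCTAGAC in 0.167% and TAAAAATA in 2.45%. Of 31 windows of 24 members, 11 held GAGGAA and none held the SMAD palindrome or the MEF2 core. These matches describe letters in a window and say nothing of binding.

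Other genes of the same pathways were taken from lists made by role. Of 33 other TGF-beta pathway genes (ligands, SMAD proteins, activators and inhibitors), 32 were tested with 9 libraries and 0 were called in any comparison. With 8 libraries, 1 was called in MLIV against WT, Thbs1, which encodes the matrix protein thrombospondin 1, an activator of latent TGF-beta. Thbs1 was at 24.3, 26.7 and 29.8 CPM in WT replicates 1, 2 and 3. It was at 39.9, 34.2 and 25.3 CPM in FD and at 68.2, 53.7 and 44.4 in MLIV. The log2 fold change of MLIV against WT with 8 libraries was 1.11 ± 0.24 (adjusted p = 0.0304). Of 24 other purinergic genes 19 were tested with 9 libraries and none was called, and none of 22 tested with 8. Of 21 other myeloid transcription factors 20 were tested, and Sall3, a relative of Sall1, was called lower in MLIV than in FD with 8 libraries, with a log2 fold change of -0.62 ± 0.15 (adjusted p = 0.0278).

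Of the 2 ligands of CSF1R, Csf1 was called with 8 libraries. Its 3 WT libraries held 27.6, 38.0 and 81.5 CPM, the last being the one labelled WT replicate 3, and it was at 37.2, 32.6 and 64.1 in FD and at 90.4, 91.8 and 88.0 in MLIV. Its log2 fold change was 1.45 ± 0.26 in MLIV against WT (adjusted p = 0.0111) and 1.01 ± 0.23 in MLIV against FD (adjusted p = 0.0193), while Csf1r itself was not called. Of 21 other microglia-enriched genes, Serpine2, which encodes a secreted serine protease inhibitor, was lower in FD than in WT in both fits. It was at 603, 754 and 1189 CPM in WT, at 340.1, 318 and 253 in FD and at 1235, 973 and 878 in MLIV, a log2 fold change of -1.48 ± 0.24 in FD against WT (adjusted p = 0.0182) with 9 libraries. Lag3, an inhibitory receptor, was higher in MLIV with 8 libraries, with a log2 fold change of 1.49 ± 0.20 against WT (adjusted p = 0.000735).

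A list of 24 activated microglia genes was set beside the members. With 9 libraries edgeR called 0 of 24 in MLIV against WT and 0 of 24 in MLIV against FD, and with 8 libraries 21 of 24 were called higher in MLIV against WT and 20 in MLIV against FD. The summed level of the list was 10993, 14441 and 34346 CPM in WT replicates 1, 2 and 3, 10424 to 13251 in FD and 29181 to 31572 in MLIV. The relation between the activated genes and the members was not tested.

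Markers of other cells moved in the same comparison. Neutrophil markers were called higher in MLIV than in FD for 5 of 10 genes with 9 libraries and 6 of 10 with 8, and monocyte markers for 2 of 9 and 3 of 9. S100a9 was at 3.47 to 18.1 CPM in WT and 1.27 to 1.93 in FD, with 49.3 to 90.2 in MLIV. Summed over the 10 neutrophil markers the level was 629 to 731 CPM in WT and 634 to 712 in FD, with 709 to 927 in MLIV, of which Csf3r made up 552 to 706. The 9 monocyte markers summed to 54.9 to 89.4 CPM in WT and 40.8 to 61.6 in FD, with 111 to 133 in MLIV. Sums of the 10 neuron markers were 6.48 to 26.3 CPM, those of the 10 astrocyte markers 17.6 to 79.1, those of the 10 oligodendrocyte markers 91.3 to 139, those of the 10 endothelial markers 45.7 to 69.9 and those of the 10 lymphocyte markers 16.6 to 35.1. The 14 border macrophage markers summed to 649.5 to 1187 CPM in WT and 725 to 945 in FD, with 684 to 696 in MLIV. Stab1, an endocytic receptor among them, was called lower in MLIV than in FD, with a log2 fold change of -0.72 ± 0.14 (adjusted p = 0.0313) with 9 libraries, while the median over the 14 markers was 0.71. Without Stab1 the list summed to 93.6 to 621 CPM in WT and 84.7 to 332 in FD, with 276 to 376 in MLIV. The sorting gate held CX3CR1, CD45 and CD11b, and whether neutrophils passed it was not tested. No marker was at 0 counts in every library, and the part of these cells in the changes of Cst3, Sparc, Cd164 and Txnip was not tested.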

How the data were processed

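RNA of sorted brain cells was sequenced after library preparation with the SMARTer Pico kit. The values used are counts per gene that the authors made and deposited, with reads aligned to mm10 by STAR 2.5.1 and counted by featureCounts 1.4.6-p3 over UCSC gene models, with no option for strand, so antisense reads are counted with their neighbour. The command named 21 libraries, of which the 9 of this series were used, and 0 other columns of samples were in the table. The deposited tables of the authors' own DESeq2 comparisons (mean, log2 fold change, standard error, statistic, p and adjusted p) were not used.

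Genes were filtered with filterByExpr by group, scaled by TMM and tested with edgeR 4.0.16 (glmQLFit with robust estimation, glmQLFTest, R 4.3.3, limma 3.58.1) in 1 fit over all groups with no covariate, with Benjamini-Hochberg adjustment over all genes tested. DESeq2 1.42.0 was an alternative. The others were scaling by RLE or by library totals, other filters, a fold threshold, a replicate block, only the groups compared, and leaving out each library. The scripts were tested on simulated data. Intervals are 95% intervals from the quasi-likelihood degrees of freedom.

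The members and the gene lists were chosen with earlier results of these data known. Values in every library were given for members with an adjusted p below 0.05, for members with an unadjusted p below 0.05 and a change over 1 log2 unit, and for P2ry12, Tmem119, Cx3cr1, Csf1r, Sall1, Spi1, Tgfbr1, Tgfbr2 and Smad3. Other members were given by range, and from the other lists at most 3 called genes each were named. Not described above is Pecam1 (endothelial markers), lower in MLIV than in FD with 8 libraries (log2 fold change -0.91, edgeR adjusted p = 0.0187). Jun, from 23 immediate-early and dissociation genes, was also lower there (-0.62, edgeR adjusted p = 0.0367). Each was the only gene of its list called in that comparison. Olfml3, Itgb5, P2ry13, Marcks, Hpgds and Rhob were described after their values were seen. No 2 libraries were alike within sampling noise.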

Additional observations from a re-analysis of the deposited data

Results flagged for a closer look

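The changes of the mutants differed from each other for 4 members when the library labelled WT replicate 3 was left out, by edgeR's test of MLIV against FD over 17440 genes. The log2 fold change of MLIV against FD was 0.80 for Cst3 (adjusted p = 0.0118), 0.62 for Sparc (adjusted p = 0.0219), 0.69 for Cd164 (adjusted p = 0.0478) and -0.59 for Txnip (adjusted p = 0.0122). The edgeR test called 5.63% of all genes. The 4 members were chosen by this test, and for each all 3 MLIV libraries lay on one side of all 3 FD libraries. That held for 14 of 32 members and for 24.6% of all genes tested. With all 9 libraries 0 members were called by edgeR (1.26% of all genes) and 8 by DESeq2 (1519 of 11531 genes). At an unadjusted p below 0.05 by edgeR there were 9 members, beside 19.4% of all genes. With 8 libraries the edgeR count was 0 without MLIV replicate 1 and 0 without MLIV replicate 2, with 372 and 369 genes called in all.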

How the results depend on the processing

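The count of members called moved with the setting, and so did the count of all genes called, given after each in brackets. As reported it was 0 (52), 0 (0) and 0 (194) in FD against WT, MLIV against WT and MLIV against FD with 9 libraries and 0 (54), 0 (296) and 4 (982) with 8. With DESeq2 it was 1 (173) in FD against WT and 8 (1519) in MLIV against FD with 9 libraries, and 1 (128), 3 (701) and 10 (1808) in FD against WT, MLIV against WT and MLIV against FD with 8. With no filter it was 1 (94) and 4 (637) in FD against WT and MLIV against FD with 9 libraries and 2 (208) in FD against WT with 8. In MLIV against FD with 9 libraries it was 1 (288) with RLE, 1 (548) with library totals, 2 (600) with at least 10 counts in every library and 3 (699) with only the groups compared. In MLIV against WT with 8 libraries these settings gave 1 (304), 2 (298), 1 (316) and 2 (1164). In MLIV against FD with 8 libraries library totals gave 8 (1273) and a change over 1 log2 unit 0 (440). Leaving out each library in turn gave 0 to 4 members in MLIV against FD with 9 libraries (52 to 982), and with 8 libraries 0 to 1 in FD against WT (30 to 122), 0 to 5 in MLIV against WT (81 to 1515) and 0 to 5 in MLIV against FD (369 to 1885). The cause of these moves was not tested.

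The replicate block gave 1 member (Cst3) in MLIV against WT (471) and 5 in MLIV against FD (1381) with 8 libraries. The replicate numbers did not pair the libraries, whose deviations correlated at -0.166 to 0.0335.

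Over 78 results for single genes and 1209 alternatives 16 lost a call, 50 gained one, 75 uncalled values took the other sign and 0 called values reversed. Scaling by library totals moved the median of all genes by -0.15 in MLIV against WT with 9 libraries and by -0.20 with 8.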
